A study of Mus musculus with 4 samples.

Results

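The imprinted growth network genes described here are Igf2, H19, Dlk1, Meg3, Peg3, Mest, Plagl1, Grb10 and Ndn. They were chosen by gene symbol, and all 9 were found among the 23990 genes of the expression tables. The study sequenced poly-A RNA from sorted mouse lung cells labelled alveolar type 1 (AT1), the flat cells that line the air sacs. There were 4 libraries, 2 per label. The libraries labelled Sox2 came from Scnn1a-Cre; Rosa[Sox2/+] mice, in which Cre turns on a Sox2 transgene at the Rosa locus. The libraries labelled control came from Scnn1a-Cre; Rosa[mTmG/+] mice, which carry a membrane fluorescent reporter at that locus. All the mice carried Scnn1a-Cre, in which the Scnn1a gene drives the recombinase, were of a mixed B6 and 129 strain, were littermates per the protocol, and were taken at postnatal day 3 or 4. Cells came from strips of the lobe edge after enzymatic digestion, lysis of red cells and removal of dead cells. Neither the gate of the sort nor the number of animals per library is given in the sources used here. The first and second library of a label are its replicates 1 and 2. The p-values therefore measure only the spread between these libraries, which may be technical.

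In an imprinted gene, marks laid down in the egg or sperm leave mainly the copy from a single parent active. Many imprinted genes act on fetal and early postnatal growth, and in mice a group of them is known to be expressed together in growing organs and to fall in level as growth slows after birth. Plagl1, a zinc finger transcription factor, is known in mice as a regulator within that network. The expression tables give a total for each gene and do not separate the parental copies.

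The level of Sox2 itself went against the labels. Sox2, the transcription factor encoded by the transgene, was at 1.41 and 1.99 FPKM (fragments per length of transcript and per total of mapped fragments) in the libraries labelled Sox2, against 302 and 477 FPKM in those labelled control. Every direction below follows the labels and so runs against the Sox2 level. An exchange of labels or files, which would turn every direction round, is possible and was not tested. Across all genes, 11062 to 12096 genes per library reached 1 FPKM, and small RNA genes held 5.76% to 50.9% of a library's summed FPKM. Among the 12040 genes tested, the median log2 difference was -0.29, and 12 reference genes had a median of -0.99, with 0 called higher and 5 lower in the libraries under the Sox2 label. AT1 markers were present in every library, summing to 7822 and 9002 FPKM in labelled Sox2 replicates 1 and 2 and to 1574 and 982 FPKM in labelled control replicates 1 and 2. Of 12 AT1 markers tested, 11 were called higher under the Sox2 label and 0 lower, against 4.20% and 8.11% of all tested genes. The most abundant, Ager, was at 3260 and 3737 FPKM in the libraries labelled Sox2, against 496 and 157 FPKM in those labelled control. Markers of alveolar type 2 (AT2) cells, which make surfactant, were also abundant, with Sftpc at 21170 and 14800 FPKM under the Sox2 label and 5003 and 796 FPKM under the control label.

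In the libraries labelled Sox2, Dlk1, Meg3 and Peg3 were higher than in those labelled control, by 10.0-fold, 8.41-fold and 3.63-fold in mean FPKM. The other 6 network genes did not pass the test. Of these, Plagl1 and Grb10 had their labelled Sox2 libraries below both labelled control libraries, whereas Igf2, H19, Mest and Ndn overlapped between the labels. The test was limma on log2(FPKM + 1), two-sided, with Benjamini-Hochberg adjustment over the 12040 genes whose mean was at least 1 FPKM and a threshold of 0.05. All 9 network genes passed that filter. The 3 calls of higher compare with 4.20% of all tested genes called higher, and the 0 calls of lower with 8.11% called lower. The median log2 difference of the 9 was 0.76. The calls of higher became 5 with the first labelled control library left out and 2 with any other library left out. A fit with 1 library left out holds 1 library of a label, so it cannot measure the spread within that label. With no filter on low values, none of the 9 passed, with limma adjusted p of 0.133 for Dlk1, 0.108 for Meg3 and 0.175 for Peg3.

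**Figure D1:**
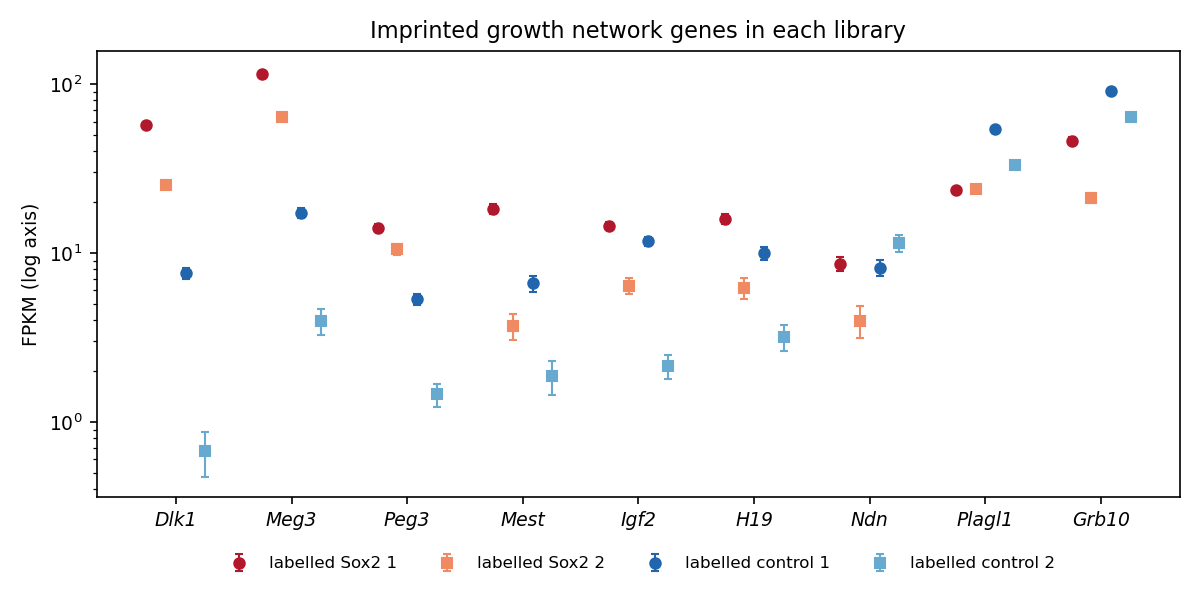
FPKM on a log axis of the 9 imprinted growth network genes in each of the 4 libraries, with bars from the deposited lower to upper bound of each value. Dlk1, Meg3 and Peg3 have both labelled Sox2 libraries above both labelled control libraries, and Plagl1 and Grb10 have them below.

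The groups did not overlap for 5 of the 9 genes, with 3 higher and 2 lower under the Sox2 label. Of all tested genes, 15.7% were higher without overlap and 42.5% were lower without overlap. For the same 5 genes the deposited lower and upper bounds were also apart between the labels. Those bounds describe the estimate within a library and not the spread between libraries.

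Promoter sequences are shown for the 3 genes that passed the test, which gave 3 of the 5 separations between the labels described above. They are RefSeq sequences on build GRCm38.p6 and run 5′ to 3′ on the gene's strand, from 250 bases before to 50 bases after the gene start. Dlk1 is at chr12:109452573-109452872 on the + strand. Meg3 is at chr12:109540746-109541045 on the + strand, which is the first of its listed starts. Peg3 is at chr7:6730370-6730669 on the - strand. Capitals mark matches to the motifs named below the sequences.
Dlk1: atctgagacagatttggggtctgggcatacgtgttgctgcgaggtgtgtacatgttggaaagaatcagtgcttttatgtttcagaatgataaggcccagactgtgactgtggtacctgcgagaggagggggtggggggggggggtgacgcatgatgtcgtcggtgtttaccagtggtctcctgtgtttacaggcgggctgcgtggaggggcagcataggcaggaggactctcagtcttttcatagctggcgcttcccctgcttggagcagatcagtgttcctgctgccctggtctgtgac
Meg3: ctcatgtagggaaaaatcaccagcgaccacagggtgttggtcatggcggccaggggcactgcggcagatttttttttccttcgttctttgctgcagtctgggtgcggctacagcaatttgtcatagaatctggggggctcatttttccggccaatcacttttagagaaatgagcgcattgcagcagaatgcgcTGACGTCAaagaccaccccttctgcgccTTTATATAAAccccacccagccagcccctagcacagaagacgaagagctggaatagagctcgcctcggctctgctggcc
Peg3: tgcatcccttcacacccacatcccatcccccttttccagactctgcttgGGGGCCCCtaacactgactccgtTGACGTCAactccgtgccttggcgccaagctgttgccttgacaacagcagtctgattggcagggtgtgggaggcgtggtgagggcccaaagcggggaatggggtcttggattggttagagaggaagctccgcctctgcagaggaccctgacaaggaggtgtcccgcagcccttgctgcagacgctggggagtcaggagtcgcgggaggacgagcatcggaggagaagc

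The motifs were searched on both strands in 15 promoters of 8 network genes, and in 32851 RefSeq promoters of the same length as background. Igf2, Mest, Grb10 and Meg3 each gave several of the 15. The Mest windows that start at chr6:30737800 and chr6:30737803 overlap almost wholly, so the 15 are not independent. GGGGCCCC, a motif known for Plagl1, was found in the Peg3 promoter, starting 201 bases before the gene start, and in no other of the 15, against 1.08% of all promoters. TGACGTCA, the cAMP response element, was found in the Meg3 promoter 57 bases and in the Peg3 promoter 178 bases before the start, against 1.79% of all promoters. That motif was added after the sequences had been seen. TATAAA was found in the Meg3 promoter on each strand, the matches sharing bases with each other, 25 and 29 bases before the start, against 13.6% of all promoters. ACAAAG, a core motif bound by Sox factors, was found in 0 of the 15 promoters, against 18.7% of all promoters. ACAATG, another such core, was found in 1, at Igf2, against 12.6% of all promoters. The Dlk1 promoter printed above held none of these motifs. A match is a description of letters in the window and not evidence of binding.

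Igf2 and Dlk1 encode signal proteins. Igf2 (chr7:142650768-142661035, mm10, as are the other gene positions) encodes insulin-like growth factor 2, a fetal growth factor active from the paternal copy. It was at 14.5 and 6.38 FPKM in labelled Sox2 replicates 1 and 2, against 11.8 and 2.14 FPKM in labelled control replicates 1 and 2. Replicate 1 was the higher library under each label, and the labels overlapped. The log2 difference was 0.76 (SE 0.61, 95% interval -0.58 to 2.10, limma adjusted p = 0.445). Leaving out the second labelled control library turned the difference to -0.25, and leaving out the first gave 1.77.

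Dlk1 (chr12:109452823-109463336) encodes a membrane protein related to the Delta ligands of Notch, active from the paternal copy and known for holding back the differentiation of progenitor cells such as preadipocytes. It was at 57.0 and 25.4 FPKM in labelled Sox2 replicates 1 and 2, against 7.57 and 0.670 FPKM in labelled control replicates 1 and 2. Both labelled Sox2 libraries lay above both labelled control libraries, which themselves stood far apart. The mean was 41.2 ± 22.4 FPKM under the Sox2 label and 4.12 ± 4.88 FPKM under the control label (SD, n = 2 each). The log2 difference of 3.37 (SE 0.66, 95% interval 1.93 to 4.82) passed the test, with a limma adjusted p of 0.00911. The 10.0-fold ratio of means became 61.6 with the first labelled control library left out and 5.44 with the second left out. It became 6.16 with the first labelled Sox2 library left out and 13.8 with the second left out. With 1 library left out, the log2 difference of Dlk1 was 2.19 to 4.55. A fit without a labelled control library could not measure the wide spread between the labelled control libraries. The call of Dlk1 was lost with a variance model robust to outlying genes (limma adjusted p = 0.162).

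Grb10 and Mest encode proteins that act inside the cell. Grb10 (chr11:11930499-12037420) encodes an adaptor that binds the insulin and IGF1 receptors and restrains growth, and in most mouse tissues it is active from the maternal copy. It was at 46.3 and 21.2 FPKM in the libraries labelled Sox2, against 91.4 and 64.2 FPKM in those labelled control. All the labelled control values lay above the labelled Sox2 values. The log2 difference was -1.26 (SE 0.39, 95% interval -2.13 to -0.39), and it did not pass the test (limma adjusted p = 0.0602). Grb10 passed as lower under the robust variance model (limma adjusted p = 0.0292) and with the replicate number as a block (0.0149). After median-of-ratios rescaling its log2 difference was -0.91, and it did not pass (limma adjusted p = 0.089). It also did not pass after quantile normalization (-0.95, 0.101) or after rescaling without small RNA genes (-0.97, 0.088). The log2 difference was -1.80 with the first labelled Sox2 library left out and -0.72 with the second left out. It was -1.01 with the first labelled control library left out and -1.51 with the second left out.

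Mest (chr6:30733506-30748466) encodes a paternally expressed protein of the alpha/beta hydrolase fold and is known as a marker of growing mesodermal tissue in the mouse embryo. It was at 18.3 and 3.70 FPKM in labelled Sox2 replicates 1 and 2, against 6.60 and 1.86 FPKM in labelled control replicates 1 and 2. Labelled Sox2 replicate 1 stood above the other libraries, and the labels overlapped. The log2 difference was 1.03 (SE 0.65, 95% interval -0.39 to 2.46, limma adjusted p = 0.319). It was 0.01 with the first labelled Sox2 library left out, and 1.73 with the first labelled control library left out. Copg2 overlaps Mest on the opposite strand, and no source used here gives the strand setting of the counting. Copg2 was at 18.6 and 9.05 FPKM in the libraries labelled Sox2, against 16.9 and 12.8 FPKM in those labelled control.

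Plagl1 and Peg3 encode zinc finger proteins active from the paternal copy. Plagl1 (chr10:13090788-13131695) was at 23.6 and 24.0 FPKM in the libraries labelled Sox2, against 54.0 and 33.2 FPKM in those labelled control. The labelled Sox2 libraries were close to each other and below both labelled control libraries. The log2 difference was -0.80 (SE 0.34, 95% interval -1.55 to -0.06), and it did not pass the test over all genes (limma adjusted p = 0.142).

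Peg3 (chr7:6705960-6730419) encodes a large zinc finger protein that binds DNA. It was at 14.1 and 10.5 FPKM in the libraries labelled Sox2, against 5.33 and 1.46 FPKM in those labelled control. The labels did not overlap, and labelled control replicate 2 was the lowest library. The mean was 12.3 ± 2.56 FPKM under the Sox2 label and 3.39 ± 2.74 FPKM under the control label (SD, n = 2 each). The log2 difference of 1.74 (SE 0.48, 95% interval 0.69 to 2.80) passed the test, with a limma adjusted p of 0.0382. Peg3 no longer passed with the first labelled Sox2 library left out (limma adjusted p = 0.163), with the second left out (0.128), with the second labelled control library left out (0.178) or with a filter of 5 FPKM (0.0508). The ratio of means, 3.63, became 8.47 with the first labelled control library left out and 2.31 with the second left out. Peg3os, annotated on the opposite strand, was at 14.2 and 10.4 FPKM in the libraries labelled Sox2, against 6.47 and 1.24 FPKM in those labelled control. Those values lie near the ones of Peg3, and reads of the 2 genes cannot be told apart without strand.

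Ndn (chr7:62348277-62349927) encodes necdin, a protein of the MAGE family known for restraining the cell cycle in neurons and active from the paternal copy. It was at 8.65 and 3.97 FPKM in the libraries labelled Sox2, against 8.18 and 11.5 FPKM in those labelled control. The labels overlapped, with labelled Sox2 replicate 2 the lowest library. The log2 difference was -0.63 (SE 0.42, 95% interval -1.56 to 0.31, limma adjusted p = 0.358).

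H19 and Meg3 are long non-coding RNAs transcribed from the maternal copy, each in the same imprinted domain as one of the signal proteins. H19 (chr7:142575532-142578146), the neighbour of Igf2, was at 15.9 and 6.22 FPKM in labelled Sox2 replicates 1 and 2, against 10.0 and 3.18 FPKM in labelled control replicates 1 and 2. The labels overlapped, with replicate 1 the higher library under each. The log2 difference was 0.70 (SE 0.54, 95% interval -0.48 to 1.88, limma adjusted p = 0.42), and it became 0.09 with the first labelled Sox2 library left out and 0.00 with the second labelled control library left out. Mir675, the microRNA gene within H19, was listed at 0 in every library.

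Meg3 (chr12:109540996-109571729), the neighbour of Dlk1, was the most abundant of the 9 genes per length in the libraries labelled Sox2. It was at 115 and 64.2 FPKM in the libraries labelled Sox2, against 17.3 and 3.96 FPKM in those labelled control. The labels did not overlap, and the lowest labelled Sox2 value was above the highest labelled control value. The mean was 89.4 ± 35.7 FPKM under the Sox2 label and 10.6 ± 9.43 FPKM under the control label (SD, n = 2 each). The log2 difference of 3.19 (SE 0.54, 95% interval 2.00 to 4.37) passed the test, with a limma adjusted p of 0.00467. With 1 library left out, the difference was 2.25 to 4.13, in fits that cannot measure the spread within the label left with 1 library. The ratio of means, 8.41, became 22.6 with the first labelled control library left out and 5.17 with the second left out. Ranked by mean FPKM among all genes, Meg3 stood at 539 under the Sox2 label and at 5416 under the control label.

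**Figure D2:**
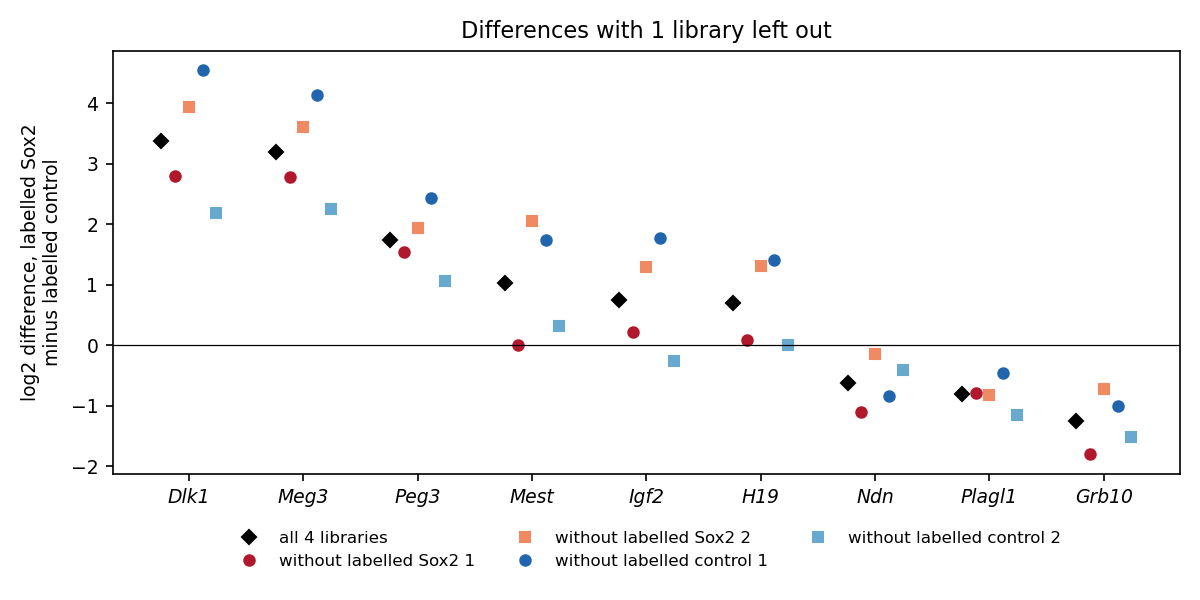
Log2 difference, labelled Sox2 minus labelled control, of each of the 9 genes with all 4 libraries (diamonds) and with 1 library left out (circles and squares). Dlk1, Meg3 and Peg3 stay above 0 and Plagl1, Grb10 and Ndn stay below it, whereas Igf2 lies at -0.25 with the second labelled control library left out.

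The level of the 9 genes by label can be set in order, since FPKM is per length. Under the Sox2 label the order by mean was Meg3, Dlk1, Grb10, Plagl1, Peg3, H19, Mest, Igf2 and Ndn. Meg3 lay above Dlk1, and Plagl1 above Peg3, without overlap of their ranges over the libraries of that label, and the ranges of the other neighbours in the order overlapped. From Peg3 to Igf2 the means were 12.3, 11.1, 11.0 and 10.4 FPKM, closer together than the spread between the libraries of that label. Under the control label the order was Grb10, Plagl1, Meg3, Ndn, Igf2, H19, Mest, Dlk1 and Peg3. Grb10 lay above Plagl1, and Plagl1 above Meg3, without overlap of their ranges, and from Meg3 on each gene overlapped with the next. The 9 genes together summed to 313 and 166 FPKM in the libraries labelled Sox2, against 212 and 122 FPKM in those labelled control, and the labels overlapped in that sum.

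Among the 9 genes, the 2 closest pairs of profiles were those of genes that share a domain. Over the 4 libraries, the distance between 2 genes was taken as the Euclidean distance between their log2(FPKM + 1) values, each centred on its own mean. The closest pair among the 9 was Dlk1 and Meg3, at 0.44, followed by Igf2 and H19, at 0.46, and H19 and Mest, at 0.66. Genes outside the 9 were closer still to Dlk1 (0.34), Meg3 (0.27), Igf2 (0.16) and H19 (0.11), so such closeness is not particular to a shared domain. The ratio of Igf2 to H19 was 0.913 and 1.03 in the libraries labelled Sox2, against 1.17 and 0.674 in those labelled control. The ratio of Dlk1 to Meg3 was 0.498 and 0.396 in the libraries labelled Sox2, against 0.438 and 0.169 in those labelled control. These are descriptions over 4 libraries, with no test.

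The libraries took a shared order within each of 2 groups of the network genes. Dlk1, Meg3 and Peg3 ran from labelled Sox2 replicate 1 through labelled Sox2 replicate 2 and labelled control replicate 1 to labelled control replicate 2, as did 9.13% of all tested genes. Igf2, H19 and Mest ran from labelled Sox2 replicate 1 through labelled control replicate 1 and labelled Sox2 replicate 2 to labelled control replicate 2, as did 7.89% of all tested genes.

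Markers of other cell types moved in the same orders. The first order was that of 10 of 10 tested AT2 markers, 8 of 10 endothelial, 7 of 15 mesenchymal and 3 of 12 AT1 markers. The order of Igf2, H19 and Mest was that of 7 of 15 mesenchymal markers, 4 of 7 leukocyte, 1 of 10 endothelial and 0 of 10 AT2 markers. AT2 markers summed to 25590 and 17780 FPKM in the libraries labelled Sox2, against 6140 and 997 FPKM in those labelled control. Of 10 tested AT2 markers, 9 were called higher and 0 lower, against 4.20% and 8.11% of all tested genes. Endothelial markers summed to 219 and 147 FPKM under the Sox2 label and to 57.9 and 24.5 FPKM under the control label. Of 10 tested, 4 were called higher and 0 lower. Esam had the highest endothelial mean under the Sox2 label, with 63.3 and 74.5 FPKM there and 8.44 and 2.54 FPKM under the control label, where Egfl7 had the highest. Esam was not among the 8 in the first order, since it was higher in labelled Sox2 replicate 2 than in replicate 1. Mesenchymal markers summed to 755 and 279 FPKM under the Sox2 label and to 341 and 88.1 FPKM under the control label. Of the mesenchymal markers, Lum was at 0 in labelled Sox2 replicate 2, and Mfap4, highest by the mean over all 4 libraries, was at 246 and 17.1 FPKM under the Sox2 label and 106 and 10.9 FPKM under the control label. All 15 tested mesenchymal markers had positive differences. Under each of the 3 rescalings 6 passed as higher, beside 888 to 980 of all 11995 to 12040 genes tested. Eln, which encodes elastin, was the only mesenchymal marker to pass without rescaling in the test used here. It was at 142 and 127 FPKM under the Sox2 label and 72.0 and 37.0 FPKM under the control label (limma adjusted p = 0.0331). Among the fits with 1 library left out, Eln passed only in the one without the first labelled control library. Leukocyte markers summed to 93.6 and 47.9 FPKM under the Sox2 label and to 41.6 and 20.2 FPKM under the control label. Csf1r, the only one of 7 tested leukocyte markers to pass (limma adjusted p = 0.00112), was at 27.7 and 25.2 FPKM under the Sox2 label and 3.02 and 1.03 FPKM under the control label. It did not take the order of Igf2, and under the control label it was below Laptm5, Cd68, Tyrobp and Coro1a. None of the AT2, endothelial or leukocyte markers was at 0 in any library. The part of these cells in the levels of the network genes was not tested. In such bulk libraries, fewer cells of a type and less RNA per cell cannot be told apart.

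**Figure D3:**
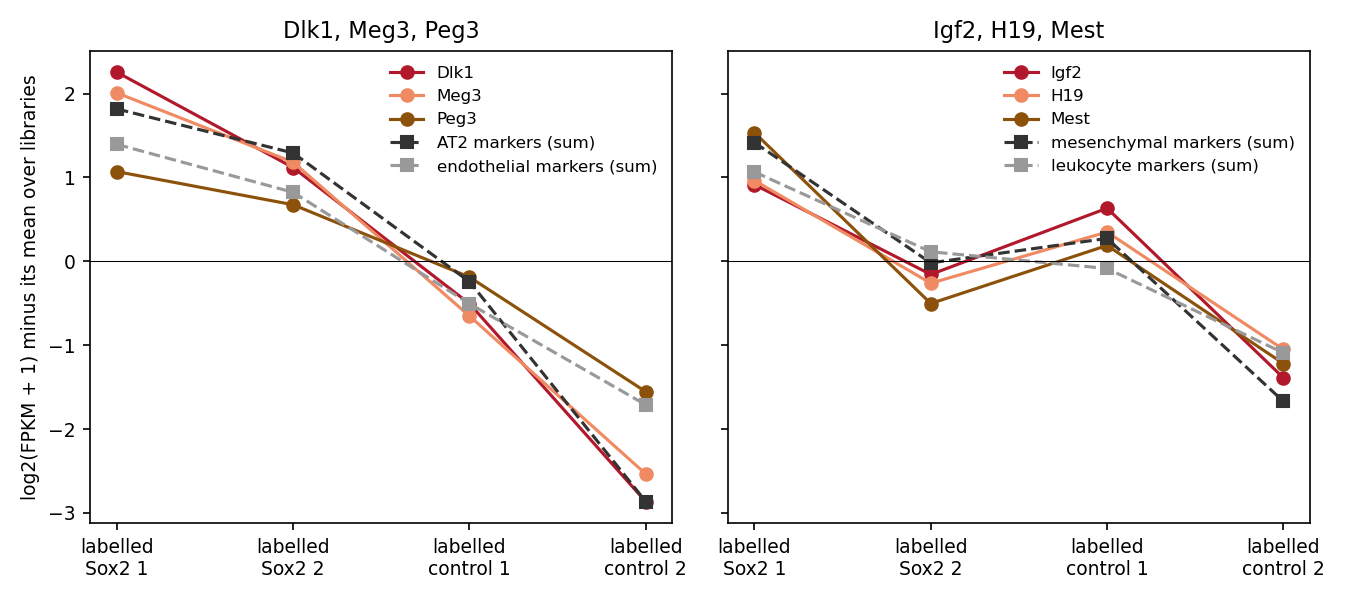
Log2(FPKM + 1) minus its own mean over the 4 libraries, by library, for Dlk1, Meg3 and Peg3 with the summed AT2 and endothelial markers (left) and for Igf2, H19 and Mest with the summed mesenchymal and leukocyte markers (right). The left profiles fall from labelled Sox2 replicate 1 to labelled control replicate 2, and on the right Igf2, H19, Mest and the mesenchymal sum lie higher in labelled control replicate 1 than in labelled Sox2 replicate 2.

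The other markers were at other levels or in other orders. Airway markers summed to 4102 and 6598 FPKM under the Sox2 label and to 2171 and 2416 FPKM under the control label, most of it the club cell gene Scgb1a1. Of 10 tested airway markers, 3 were called higher (Scgb3a2, Tppp3 and Sec14l3) and 3 lower (Sox21, Krt4 and Trp63). Over all tested genes, 4.20% were called higher and 8.11% lower. Sox21 was at 0.517 and 0.125 FPKM under the Sox2 label and 27.0 and 91.0 FPKM under the control label (limma adjusted p = 0.000437). Krt4 was at 0.168 and 0.133 FPKM under the Sox2 label and 17.0 and 74.6 FPKM under the control label (limma adjusted p = 0.000723). Trp63, a basal cell factor, was at 0.0605 and 0.0293 FPKM under the Sox2 label and 2.38 and 14.5 FPKM under the control label (limma adjusted p = 0.0145), and that call was lost with the second labelled Sox2 library left out and under 2 of the 3 rescalings. Mesothelial markers, led by Msln, summed to 95.1 and 88.7 FPKM under the Sox2 label and to 39.5 and 63.0 FPKM under the control label. Erythroid markers, led by Hba-a1, summed to 203 and 928 FPKM under the Sox2 label and to 56.3 and 257 FPKM under the control label. Neuroendocrine markers, led by Uchl1, summed to 6.14 and 4.20 FPKM under the Sox2 label and to 24.4 and 6.74 FPKM under the control label. Ndn, which is abundant in neurons, had its highest value in labelled control replicate 2 and the neuroendocrine sum in labelled control replicate 1.

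The genes with profiles most like each network gene were read from all tested genes by the same distance. Dlk1 was closest to Cxcl15 (0.34) and Trf (0.48), and Meg3 to Cdh16 (0.27) and Nrp1 (0.28). Peg3 was closest to Ets1 (0.11) and Tril (0.13). Igf2 was closest to Plin2 (0.16) and Usp18 (0.17), H19 to Lama4 (0.11) and Zfp322a (0.12), and Mest to Clec3b (0.16) and Ogn (0.19). Among the genes with negative differences, Plagl1 was closest to Disp1 (0.09) and Dock5 (0.10), Grb10 to Gtf2h3 (0.02) and Snhg1 (0.04), and Ndn to C1qtnf6 (0.08) and Rgs12 (0.08). Of these neighbours, Cxcl15 is itself on the AT2 marker list.

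The domain of Dlk1 and Meg3 on chromosome 12 holds further non-coding RNAs from the maternal copy, and 2 of them passed the test as well. Rian, which hosts small nucleolar RNAs, was at 39.0 and 17.8 FPKM in the libraries labelled Sox2, against 10.8 and 1.67 FPKM in those labelled control. Its labels did not overlap, and the log2 difference was 2.29 (SE 0.62, limma adjusted p = 0.0363). Rian no longer passed with the first labelled Sox2 or the second labelled control library left out. Mirg, which hosts microRNAs, was at 3.51 and 3.78 FPKM in the libraries labelled Sox2, against 0.488 and 0.330 FPKM in those labelled control, with a difference of 1.72 on the log2 scale (SE 0.38, limma adjusted p = 0.0158). Mirg no longer passed with either labelled Sox2 library left out. The ratio of Rian to Meg3 was 0.340 and 0.277 in the libraries labelled Sox2, against 0.624 and 0.423 in those labelled control. The paternally expressed Rtl1 and Dio3, and the flanking Begain, were below the filter, at no more than 1.04 FPKM in any library. Of 61 small RNA genes from Dlk1 to Dio3, 58 were listed at 0 in every library. Mir1906-1, within Meg3, was listed at 14180 FPKM in labelled control replicate 1 and at 0 in the other libraries.

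Around Grb10 on chromosome 11, its neighbours moved in opposite directions. Ddc, the enzyme that makes dopamine from L-DOPA, was at 17.5 and 12.8 FPKM in the libraries labelled Sox2, against 2.18 and 1.17 FPKM in those labelled control, which is 2.61 on the log2 scale (SE 0.40, limma adjusted p = 0.00303). Cobl, an actin nucleator, was at 12.99 and 13.09 FPKM in the libraries labelled Sox2, against 42.3 and 43.2 FPKM in those labelled control, which is -1.64 on the log2 scale (SE 0.31, limma adjusted p = 0.00844). Cobl no longer passed with the second labelled Sox2 library left out, whereas the log2 difference of Ddc was 2.33 to 2.88 with 1 library left out. Grb10 itself lay below the labelled control libraries without passing. In the wider region of Ndn on chromosome 7, Atp10a, a lipid flippase, was lower, at 2.70 and 1.12 FPKM under the Sox2 label and 11.1 and 5.15 FPKM under the control label (log2 difference -1.62, SE 0.47, limma adjusted p = 0.0458). Atp10a passed only with the second labelled control library left out, among the 4 such fits. In all, 10 of 23 neighbours in the tables were tested, with 3 higher and 2 lower. Of all tested genes, 4.20% were called higher and 8.11% lower. The median log2 difference of the 10 neighbours was -0.25, against -0.29 over all tested genes.

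Of 48 imprinted genes of other domains 32 were tested, and 1 was called higher and 2 lower, shares near the 4.20% and 8.11% over all tested genes. Ppp1r9a, which encodes the actin-binding protein neurabin, was higher, at 18.9 and 14.9 FPKM under the Sox2 label and 7.83 and 5.19 FPKM under the control label (log2 difference 1.27, limma adjusted p = 0.0472). Cd81, a tetraspanin, was lower, at 160 and 139 FPKM under the Sox2 label and 284 and 428 FPKM under the control label (log2 difference -1.22, limma adjusted p = 0.0356). Tssc4 was lower, at 12.8 and 8.24 FPKM under the Sox2 label and 22.2 and 29.7 FPKM under the control label (log2 difference -1.24, limma adjusted p = 0.0463). Among the fits with 1 library left out, these 3 genes passed only in the one that left out the first labelled control library. The calls of Cd81 and Tssc4 were lost under each of the 3 rescalings of the FPKM that were tried. The median of these genes was -0.25.

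**Figure D4:**
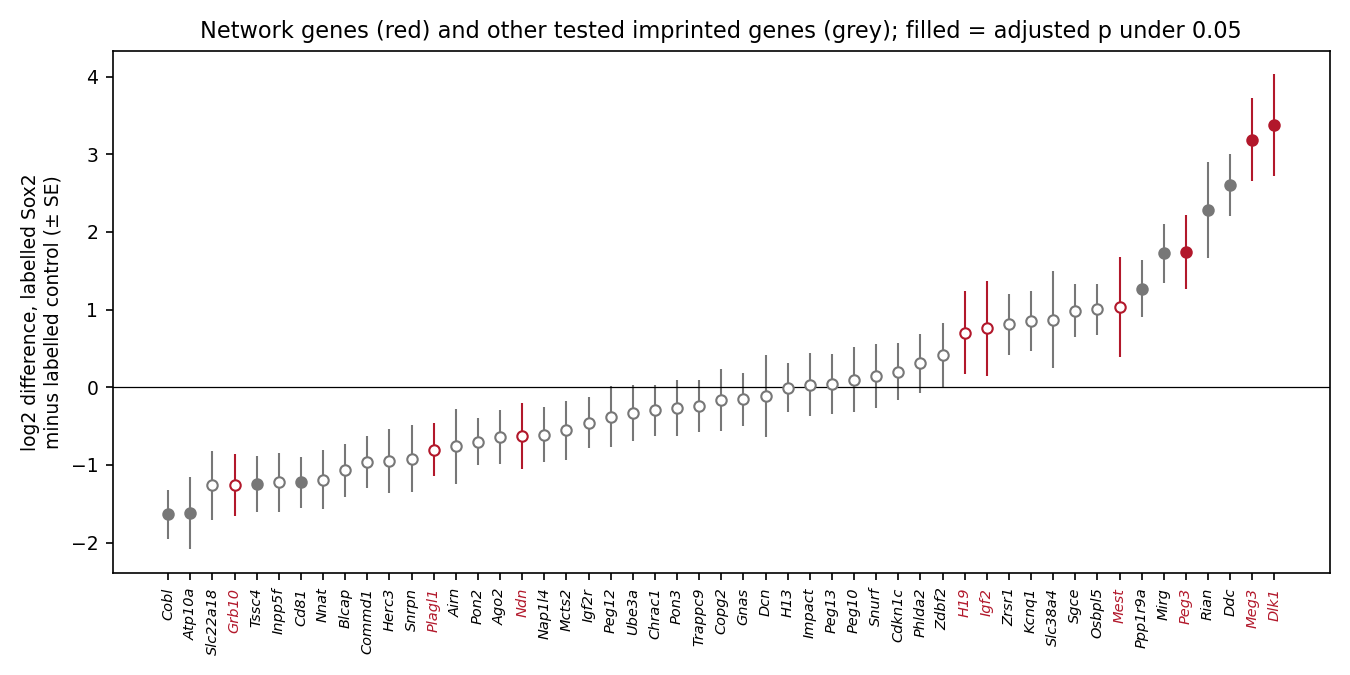
Log2 difference, labelled Sox2 minus labelled control, with its SE, of the 9 network genes (red) and of 42 other tested imprinted genes (grey), in order of size, with filled points for a limma adjusted p under 0.05. Meg3 and Dlk1 lie at the upper end, at 3.19 and 3.37, and Rian, Ddc, Peg3 and Mirg lie next to them.

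Of 7 genes known in mice as partners of Plagl1 in the network and not among the 9, 6 were tested and 0 passed in either direction. Of all tested genes, 4.20% passed as higher and 8.11% as lower. All 7 are also among the 48 imprinted genes of other domains, so this is not a separate set. Igf2r is counted once more among the IGF signalling genes below. The most abundant were Gnas, which encodes a G protein subunit, and Nnat, which encodes neuronatin. Gnas was at 618 and 463 FPKM in the libraries labelled Sox2, against 695 and 512 FPKM in those labelled control (limma adjusted p = 0.809). Nnat was at 184 and 163 FPKM in the libraries labelled Sox2, against 574 and 274 FPKM in those labelled control (limma adjusted p = 0.0637). The labels did not overlap for Nnat. The median of the 6 was -0.13.

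Around Igf2 and Grb10, 21 genes of IGF signalling were tested, and 1 was higher and 2 were lower. The shares over all tested genes were 4.20% higher and 8.11% lower. Under each of the 3 rescalings, 3 of the 21 were higher and 1 was lower. Of all 11995 to 12040 genes tested under those rescalings, 888 to 980 were higher and 686 to 827 lower. Igfbp7, a secreted binding protein, was higher, at 981 and 1197 FPKM under the Sox2 label and 77.8 and 35.2 FPKM under the control label (log2 difference 4.35, SE 0.39, limma adjusted p = 0.000242). Igf2bp1, which binds Igf2 mRNA, was lower, at 2.10 and 1.51 FPKM under the Sox2 label and 6.60 and 6.19 FPKM under the control label (log2 difference -1.41, limma adjusted p = 0.0389), and it did not pass with any 1 library left out. Igfbp3, which carries IGFs, was lower, at 1.41 and 0.458 FPKM under the Sox2 label and 3.32 and 14.2 FPKM under the control label (log2 difference -2.11, limma adjusted p = 0.0354), and it did not pass under the 3 rescalings, nor with any library but the first labelled control one left out. The log2 difference of Igfbp7 was 3.8 to 4.9 with 1 library left out. The receptors did not pass the test. Igf1r, the signalling receptor for IGF2, was at 27.9 and 33.8 FPKM under the Sox2 label and 15.6 and 15.5 FPKM under the control label (limma adjusted p = 0.0799). Its labels did not overlap, and it passed under 4 of 13 alternatives. Igf2r, which clears IGF2, was at 16.0 and 15.1 FPKM under the Sox2 label and 24.8 and 19.1 FPKM under the control label (limma adjusted p = 0.392). The median of the 21 was -0.03. These 2 receptors were singled out after their values had been seen.

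Around Dlk1, 12 Notch genes were tested, and 0 were higher and 1 was lower. That gene was Dlk2, the homologue of Dlk1, at 0.461 and 0.530 FPKM in the libraries labelled Sox2, against 5.55 and 10.2 FPKM in those labelled control. Its labels did not overlap, on the opposite side from Dlk1, and the log2 difference was -2.52 (SE 0.42, limma adjusted p = 0.0042). The log2 difference of Dlk2 was -2.91 to -2.13 with 1 library left out. The median of the 12 was 0.14, and the shares over all tested genes were 4.20% higher and 8.11% lower.

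Of 16 tested genes linked to imprints or DNA methylation, 0 were higher and 3 were lower under the Sox2 label. The shares over all tested genes were 4.20% higher and 8.11% lower. Dnmt1, the maintenance DNA methyltransferase, was at 12.8 and 7.75 FPKM under the Sox2 label and 36.6 and 21.8 FPKM under the control label (log2 difference -1.42, limma adjusted p = 0.0375). Uhrf1, which brings Dnmt1 to newly copied DNA, was at 9.80 and 2.92 FPKM under the Sox2 label and 37.7 and 24.4 FPKM under the control label (log2 difference -2.27, limma adjusted p = 0.0126). Hells, a chromatin remodeller, was at 4.87 and 1.96 FPKM under the Sox2 label and 16.5 and 8.58 FPKM under the control label (log2 difference -1.64, limma adjusted p = 0.0431). None of the 3 passed with the second labelled Sox2 library left out, and Dnmt1 and Hells did not with the first labelled control library left out. All 3 are known to be high in dividing cells. The median of the 16 was -0.51, with 6 positive and 10 negative differences. Zfp57 was at 36.9 and 18.6 FPKM under the Sox2 label and 13.6 and 3.33 FPKM under the control label. Its labels did not overlap, and it did not pass (limma adjusted p = 0.055). This gene was singled out after its values had been seen. Under each of the 3 rescalings, 1 of the 16 was higher, and 2 or 3 were lower. Among all 11995 to 12040 genes tested there, 888 to 980 were higher and 686 to 827 lower.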

How the data were processed

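Poly-A RNA of 4 sorted mouse lung cell libraries was sequenced on an Illumina HiSeq2000, per the labels' protocols. The authors deposited FPKM per gene with a lower and upper bound. The submitters' processing notes name TopHat2, Bowtie2, Cufflinks, Cuffdiff and mm10. No version, annotation or strand setting is given in the sources used here, and a table of group values was not used. Read depth is unknown, and the median half-width of the bounds was 7.82% to 12.4% of the value.

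Each table held 24490 entries. Entries of the same symbol were summed (267 genes), and 1 gene with a failed value was left out. log2(FPKM + 1) was fitted with limma 3.58.1 in R 4.3.3 (lmFit, eBayes with trend, two-sided, Benjamini-Hochberg), with 2 residual degrees of freedom. A log2 difference is labelled Sox2 minus labelled control on that scale and understates the change of low genes. An exact permutation test of 2 against 2 libraries cannot go below p = 0.333 and was not used. The fit was tested on simulated data that had the same spread for every gene. Spreads differed between genes in the real data, so that test cannot show how well the calls here hold. Gene starts count from 1, and RefSeq promoters matched 8 of the 9 genes, all but H19.

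The 9 genes and the gene lists were chosen with earlier results of these data known. Named genes are all 9, the genes past the threshold in each non-marker list (the 2 most abundant where none passed), the most abundant marker of each list and the 2 nearest profiles of each member. Further markers were named after their values had been seen. Alternatives were another pseudocount, other filters, 3 rescalings, 2 other variance models, a replicate block and leaving out each library.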

Additional observations from a re-analysis of the deposited data

How the results depend on the processing

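Of all tested genes 506 were called higher and 976 lower. Leaving out 1 library gave 229 to 830 higher and 198 to 1222 lower, with 2 to 5 of the 9 network genes higher and 0 to 1 lower, and 1 to 7 of the other imprinted genes higher and 0 to 5 lower, against 4 and 4 with all libraries. Leaving out a labelled control library left the spread pooled across genes, and the lone sample of a label was assumed to vary like the other label. With no filter on low values, 18390 genes were tested, 0 were higher and 3 lower, including 0 network genes higher and 0 other imprinted genes higher or lower, while 1251 higher and 2618 lower had an unadjusted p under 0.05. Dlk1, Meg3 and Peg3 then had limma adjusted p of 0.133, 0.108 and 0.175. Requiring 5 FPKM on average gave Peg3 0.0508. Median-of-ratios rescaling gave 964 genes higher and 2 other imprinted genes lower, quantile normalization 980 and 2, and rescaling without small RNA genes 888 and 1. These moved the median difference of all genes to 0.00, -0.04 and -0.04, and the share of higher among calls, 34.1%, to 58.4%, 54.2% and 53.6%. The robust variance model gave 1 network gene lower (Grb10) and 7 other imprinted genes lower, and the model without trend gave 2 other imprinted genes lower. The cause of these shifts was not tested.

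With the replicate number of the titles as a replicate block, 1142 genes were higher and 2730 lower, 4 network genes higher and 1 lower, and 7 other imprinted genes higher and 11 lower. Mest (limma adjusted p = 0.0284) and Grb10 (0.0149) then passed. Same-numbered libraries deviated together with r = 0.234 across 12040 genes, which are not independent replicates, and with 2 pairs the numbers are not shown to pair the libraries. Igf2 ranged over -0.25 to 1.77 when 1 library was left out, with -0.25 with the second labelled control library left out, the only reversal among the 9 genes under the alternatives run. Depth is unknown, so low values such as Dlk1 at 0.670 FPKM in labelled control replicate 2 rest on an unstated number of reads.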
